A study of Mus musculus with 9 samples.

Results

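The genes described here encode the constitutive proteasome and its activators in RAW 264.7 macrophages treated with calycosin and lipopolysaccharide (LPS). Members were taken by gene symbol, as Psma, Psmb, Psmc, Psmd or Psme followed by a number, and 44 genes of the count table matched. The 3 inducible catalytic genes Psmb8, Psmb9 and Psmb10 were left out, as were 2 genes with fewer than 100 counts over the 9 libraries, Psma8 with 16 and Psmb11 with 13. The rarest members that remained were Psme2b with 3543 counts and Psmd9 with 7488. This left 39 members of the 51826 genes in the table, and all 39 passed the filter on low counts.

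The proteasome is the barrel-shaped protease that degrades proteins tagged with ubiquitin. Its core stacks rings of alpha subunits, which form the gate, on rings of beta subunits, 3 of which carry the active sites. A cap made of a base with ATPases and of a lid binds, unfolds and feeds in the tagged proteins. PA28 and PA200 are caps of another kind, without ATPase activity, and in macrophages interferons and microbial products are known to raise PA28 alpha and beta together with the inducible catalytic subunits, which shift peptide production towards antigen presentation.

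RAW 264.7 is a transformed mouse macrophage line, and 3 groups of 3 libraries each were sequenced. The first received calycosin, an isoflavone, at 100 µg/mL for 24 h before LPS, the second LPS alone, which is a bacterial ligand of the receptor TLR4, and the third only the solvent. LPS was given at 300 ng/mL for 6 h in both LPS groups. The stated purpose was to examine the action of calycosin on inflammation. No group received calycosin without LPS, so a response to calycosin was read only in LPS-treated cells of 1 line.

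Libraries held 27784737 to 38524105 counts. Vehicle replicate 3 and calycosin plus LPS replicate 2 stood apart from their groups. The share of counts from genes of the mitochondrial genome was 17.2%, 7.45% and 19.4% in the calycosin plus LPS libraries, 13.0% to 14.7% in the LPS libraries, and 3.79%, 3.68% and 21.9% in the vehicle libraries. Results are therefore also given without those 2 libraries, which leaves 2 vehicle and 2 calycosin plus LPS libraries. The mitochondrial shares of the groups then do not overlap, at 3.68% to 3.79% with vehicle, 13.0% to 14.7% with LPS and 17.2% to 19.4% with calycosin plus LPS. In that setting the share and the treatment cannot be told apart. The part of the mitochondrial share in the results was not tested. Of 10 macrophage markers, Cd68, Lyz2, Csf1r and 6 others were present, and Mertk reached at most 0.045 TPM. Of 14 markers of other cell types, 7 were at 0 in every library and 13 stayed under 1 TPM. Their summed level was 0.922 to 1.77 TPM with calycosin plus LPS, 3.99 to 6.41 TPM with LPS and 0.794 to 1.93 TPM with vehicle, most of it from the endothelial gene Cdh5 in the LPS libraries.

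Promoter sequences came from RefSeq (GRCm38.p6, 250 bases before to 50 after each start site) and were found for 33 of the 39 members. They were searched on both strands for the core of the interferon-stimulated response element, which is GAAA and GAAA with any 2 bases between, because interferon targets such as PA28 are among the members. It was present in 4 of the 33 members (12.1%) and in 3.99% of all 27025 genes with a promoter. The 30 bases around each match are shown, with the match in capitals and, where it lies on the other strand, as its reverse complement:
Psme1 (chr14:55578493-55578522, + strand): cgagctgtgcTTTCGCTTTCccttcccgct
Psmb3 (chr11:97703261-97703290, + strand): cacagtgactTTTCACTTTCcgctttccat
Psmd4 (chr3:95042675-95042704, − strand): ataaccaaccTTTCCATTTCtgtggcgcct
Psmd9 (chr5:123228021-123228050, + strand): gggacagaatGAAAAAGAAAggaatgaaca
Counted from the start site as +1, the match lay at +10 to +19 in Psme1, at -163 to -154 in Psmb3, at -80 to -71 in Psmd4 and at -159 to -150 in Psmd9. Neither Psme2 nor Psme2b had one in this window. With LPS over vehicle, described below, Psme1 was called higher (log2 2.14) and Psmd9 lower (-0.65). Psmb3 (-0.57) and Psmd4 (-0.41) were not called. Motifs of factors known to drive proteasome genes were searched too. The antioxidant response element core, TGANNNNGC, which NRF1 and NRF2 bind, was present in 18 members (54.5%, against 45.0% of all genes). The CCAAT box, which NF-Y binds, was present in 12 (36.4%, against 41.1%). Each motif was counted on its own, whether or not it overlapped another, and a match is only a string of letters, not a bound site.

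LPS over vehicle was examined first, since it shows what the stimulus did to the proteasome. With TMM scaling (trimmed mean of M values, which aligns the bulk of the genes), 24 of the 39 members rose and 3 fell, whereas with library totals as the only scaling 6 rose and 11 fell. Among all 14458 genes tested, 27.3% were called higher and 28.9% lower with TMM, by edgeR's quasi-likelihood test at a Benjamini-Hochberg adjusted p below 0.05. The median log2 fold change was 0.41 over the members and -0.07 over all genes. Library totals moved the median of all genes to -0.77, with 1879 of the 14458 genes called higher and 7744 lower. Relative to that median the members lay 0.47 higher with TMM and 0.46 higher with library totals, and 33 and 32 of the 39 lay above it. Levels below are CPM, counts divided by the TMM-scaled library size. They are shares of the RNA of a culture, so fewer cells with a transcript and less RNA per cell cannot be told apart.

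**Figure D1:**
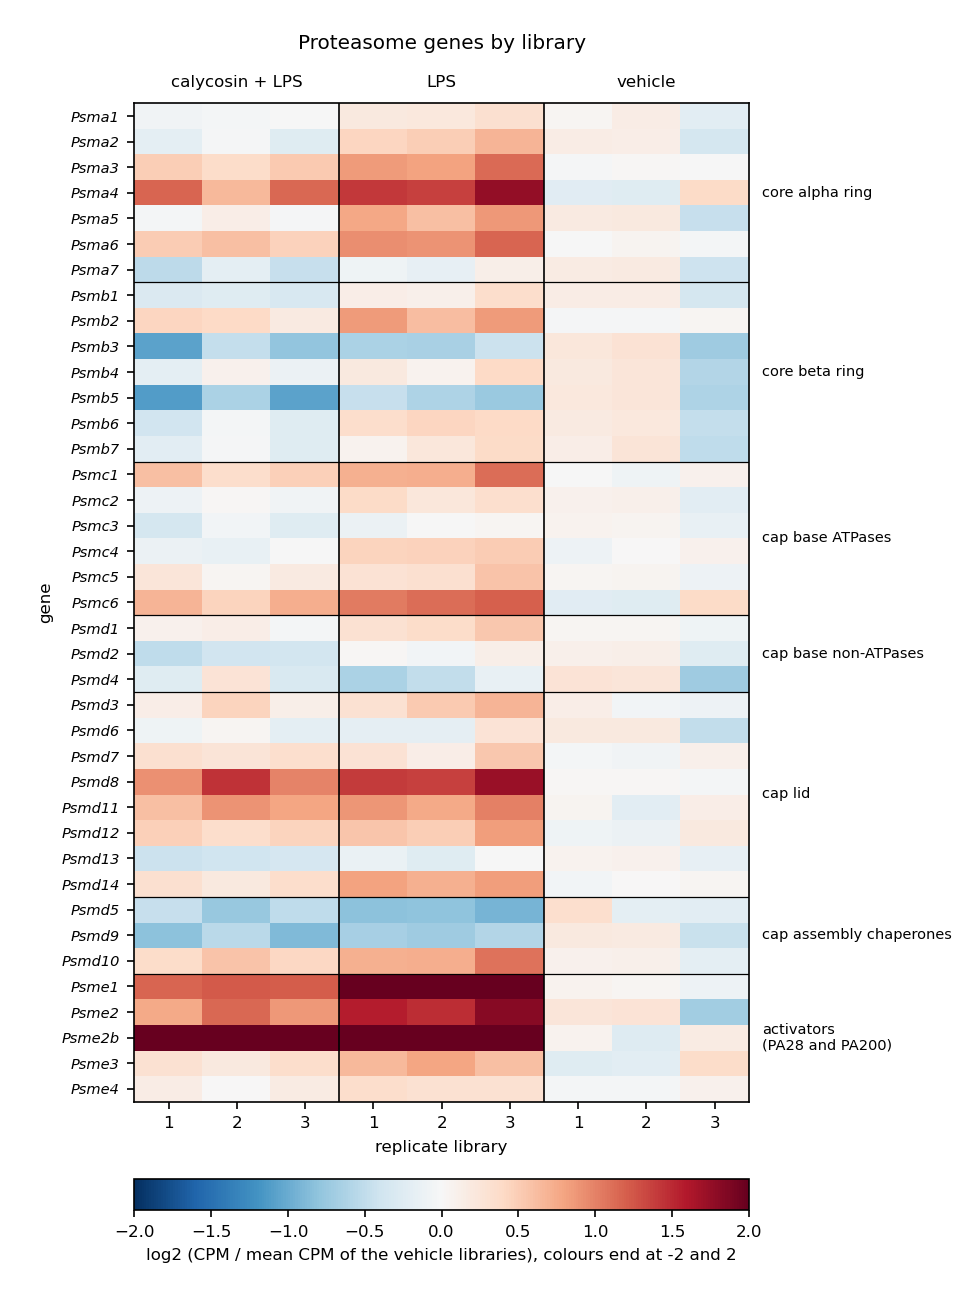
Level of each proteasome gene (rows, by role) in each library (columns), as the log2 ratio of its CPM to the mean of the 3 vehicle libraries, on a colour scale that ends at -2 and 2. With TMM scaling most rows are redder in the LPS libraries than in the vehicle libraries, with Psmb5, Psmd5 and Psmd9 as called exceptions. With library totals instead, 11 members would be called lower, against 7744 of the 14458 genes tested.

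Among the activators, Psme2b, Psme1 and Psme2 had the 3 largest rises of the members, while Psme3 and Psme4 rose less than Psma4, Psmd8 and Psmc6. Without vehicle replicate 3 and calycosin plus LPS replicate 2, Psma4 (log2 1.71) and Psmd8 (1.43) rose more than Psme2 (1.32). Psme1 (GRCm38 chr14:55578123-55581529, + strand), the alpha subunit of PA28, had 68.6, 71.5 and 71.1 CPM with calycosin plus LPS, 124, 123 and 160 CPM with LPS and 32.0, 31.4 and 28.4 CPM with vehicle. The 3 groups did not overlap, and LPS was highest. Psme1 rose 4.42-fold with LPS (log2 fold change 2.14 ± 0.13 (SE), edgeR adjusted p = 6.3e-07), and it was called in all 22 alternative settings tried.

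Psme2 (chr14:55587441-55591113, − strand), the beta subunit of PA28 that assembles with Psme1, had 77.4, 101 and 83.4 CPM with calycosin plus LPS, 136, 127 and 161 CPM with LPS and 53.9, 55.0 and 28.3 CPM with vehicle. Its groups did not overlap either, and vehicle replicate 3, at 28.3 CPM, lay far below the other vehicle libraries. The log2 fold change with LPS was 1.63 ± 0.24 (SE, edgeR adjusted p = 0.00030), and 1.32 without vehicle replicate 3 and calycosin plus LPS replicate 2.

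Psme2b is a single-exon gene with the same symbol stem as Psme2 and lies on another chromosome (GRCm38 chr11:48945354-48946190, − strand). It had 22.7, 22.3 and 15.5 CPM with calycosin plus LPS, 18.2, 18.5 and 13.8 CPM with LPS and 1.69, 1.34 and 1.79 CPM with vehicle. Both LPS groups lay far above vehicle and overlapped each other. The 10.5-fold rise with LPS (log2 3.39 ± 0.22 (SE), edgeR adjusted p = 9.7e-07) was the largest of the members. Its counts are uncertain in 2 ways. Of its 788 different 50-base words 68.7% also occur in Psme2, and how the authors' counting divided such reads is not given in the sources used here. Its annotated exon also shares 41 bases with the end of the gene 9930111J21Rik1 on the same strand, which averaged 159 ± 8.14 CPM with calycosin plus LPS, 138 ± 35.1 CPM with LPS and 11.0 ± 1.72 CPM with vehicle (SD, n = 3 each). That gene had a log2 fold change of 3.65 with LPS, and its part in the Psme2b counts was not tested.

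Psme3, which forms the nuclear PA28 gamma ring, had 203, 187 and 208 CPM with calycosin plus LPS, 256, 282 and 248 CPM with LPS and 139, 142 and 211 CPM with vehicle. All LPS libraries were above all vehicle libraries, and vehicle replicate 3 was the nearest to them. It rose with LPS by 0.68 ± 0.16 on the log2 scale (SE, edgeR adjusted p = 0.0058), with TPM values pointing the other way at -0.075. Psme4, which encodes the nuclear activator PA200, had 111, 101 and 112 CPM with calycosin plus LPS, 127, 123 and 123 CPM with LPS and 96.8, 96.9 and 106 CPM with vehicle. The LPS and vehicle libraries did not overlap, and the step between them was small. Its rise of 0.32 ± 0.09 (log2, SE, edgeR adjusted p = 0.017) was called in 12 of the 22 alternatives. With library totals Psme4 had -0.38 and was called lower (edgeR adjusted p = 0.022). With a correction for GC content the value was -0.12.

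**Figure D2:**
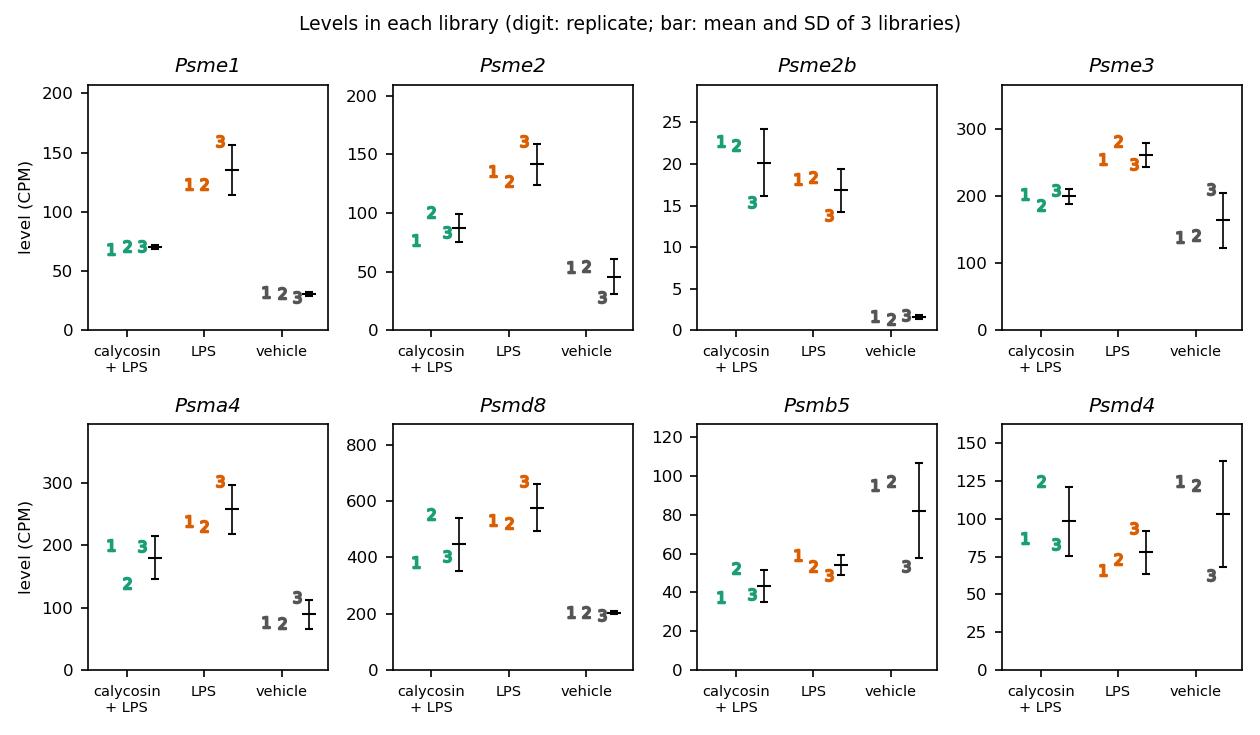
CPM (TMM-scaled, linear axes from 0) of 8 proteasome genes in each library, with calycosin plus LPS left, LPS in the middle and vehicle right. Digits are replicate numbers and bars the mean and SD of 3 libraries. The LPS libraries are highest for Psme1 (123 to 160 CPM), and vehicle replicate 3 lies apart from the other vehicle libraries for Psme2, Psme3, Psma4, Psmb5 and Psmd4.

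In the alpha ring, whose subunits form the outer rings and gate of the core, 5 of 7 members rose with LPS and none fell under TMM, against 1 (Psma4) higher and 1 (Psma7) lower with library totals. Psma4 (chr9:54950790-54958030, + strand) had 201, 140 and 198 CPM with calycosin plus LPS, 239, 231 and 303 CPM with LPS and 76.2, 75.5 and 117 CPM with vehicle. Its groups did not overlap, and LPS was highest. The log2 fold change with LPS was 1.53 ± 0.21 (SE, edgeR adjusted p = 0.00022), called in every setting tried. Psma6 rose by 1.00, Psma3 by 0.94, Psma5 by 0.75 and Psma2 by 0.54 on the log2 scale, with Psma2 at -0.19 under library totals and Psma3 at -0.0028 on log2(TPM + 1). Psma1 (0.24) and Psma7 (-0.04) did not pass the test.

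Of the 7 constitutive members of the beta ring, 1 rose (Psmb2, log2 0.78) and 1 fell (Psmb5) with LPS under TMM, against 0 higher and 2 lower (Psmb3 and Psmb5) with library totals. Psmb5 (chr14:54614119-54618022, − strand), which carries the chymotrypsin-like active site, had 37.8, 52.8 and 39.2 CPM with calycosin plus LPS, 59.5, 53.7 and 49.2 CPM with LPS and 95.4, 97.5 and 53.8 CPM with vehicle. Vehicle replicate 3 lay within the LPS libraries, and the other vehicle libraries lay far above them. The log2 fold change with LPS was -0.60 ± 0.23 (SE, edgeR adjusted p = 0.044), and -0.89 ± 0.09 without the 2 libraries that stood apart. The call was made in 11 of the 22 alternatives and missed in the other 11, among them DESeq2 size factors and leaving out vehicle replicate 1 or 2, any LPS replicate, or calycosin plus LPS replicate 1 or 3. In the libraries with a mitochondrial share over 10% alone, where vehicle replicate 3 was the only vehicle library, the value was -0.015. The microRNA gene Mir686 lies in an exon of Psmb5 on the same strand and was given 12.8% as many counts, so part of the counts may have been assigned to either gene.

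Psmb6, the caspase-like subunit, had 85.7, 109 and 94.7 CPM with calycosin plus LPS, 143, 151 and 147 CPM with LPS and 126, 129 and 80.4 CPM with vehicle. Psmb7, the trypsin-like subunit, had 71.2, 81.1 and 69.9 CPM with calycosin plus LPS, 87.0, 96.1 and 107 CPM with LPS and 90.3, 99.0 and 58.2 CPM with vehicle. The LPS libraries of Psmb6 lay above all vehicle libraries, whereas those of Psmb7 overlapped them. Neither passed the test with LPS, at log2 0.40 ± 0.18 (edgeR adjusted p = 0.083) for Psmb6 and 0.23 ± 0.18 (edgeR adjusted p = 0.32) for Psmb7 (SE). Psmb7 shares exonic bases with Nek6 on the opposite strand, whose counts came to 29.4% of its own, and the strand setting is not given. Psmb3, a subunit without an active site, had 40.9, 62.0 and 49.7 CPM with calycosin plus LPS, 55.4, 54.8 and 64.0 CPM with LPS and 100, 105 and 52.7 CPM with vehicle. Vehicle replicate 3 was the lowest of its group and below every LPS library. The value of -0.57 with all libraries was not called (edgeR adjusted p = 0.078). Psmb3 was called lower in 5 of 22 alternatives, with -0.87 without the 2 libraries (edgeR adjusted p = 0.00023). It had 0.12 in the libraries with a mitochondrial share over 10%, where vehicle replicate 3 was the only vehicle library.

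The inducible catalytic subunits replace Psmb6, Psmb7 and Psmb5 in the immunoproteasome. All 3 rose with LPS, Psmb8 by 2.14 ± 0.16, Psmb9 by 1.72 ± 0.41 and Psmb10 by 2.69 ± 0.26 on the log2 scale (SE, edgeR adjusted p = 3.3e-06, 0.0052 and 1.9e-05). With calycosin plus LPS over LPS 1 of the 3 fell, Psmb8 (-0.94 ± 0.16 (SE), edgeR adjusted p = 0.0022), and all 3 were higher with calycosin plus LPS than with vehicle. Over all genes, 27.3% were called higher with LPS over vehicle and 25.4% with calycosin plus LPS over vehicle. For calycosin plus LPS over LPS, 12.9% were called lower. Psmb8, the inducible counterpart of Psmb5, averaged 90.9 ± 11.3 CPM with calycosin plus LPS, 174 ± 12.6 CPM with LPS and 39.4 ± 7.82 CPM with vehicle (SD, n = 3 each). Psmb5 averaged 43.3 ± 8.29 CPM with calycosin plus LPS, 54.1 ± 5.15 CPM with LPS and 82.3 ± 24.6 CPM with vehicle.

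In the cap base, 5 of the 6 ATPase genes rose with LPS under TMM and none fell, against 1 higher (Psmc6) and 1 lower (Psmc3) with library totals. The log2 fold changes ran from 0.31 for Psmc2 to 1.12 for Psmc6 among those called, with Psmc2, called in 5 of 22 alternatives, at -0.41 and Psmc5 at -0.31 under library totals, and Psmc3 did not pass the test at -0.03. Psmc4 had 78.3, 76.6 and 84.6 CPM with calycosin plus LPS, 115, 117 and 120 CPM with LPS and 79.0, 85.7 and 89.7 CPM with vehicle. All LPS libraries were above the others. Psmc4 rose by 0.47 ± 0.10 (log2, SE, edgeR adjusted p = 0.0024), a direction that library totals turned to -0.23.

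Of the other base members Psmd1, a scaffold of the base, rose by 0.41 under TMM and had -0.30 with library totals. Psmd2, the other scaffold, had 202, 223 and 223 CPM with calycosin plus LPS, 295, 279 and 314 CPM with LPS and 309, 313 and 244 CPM with vehicle. Its LPS and vehicle libraries overlapped, and the log2 value was 0.03 (edgeR adjusted p = 0.83). Psmd4, a ubiquitin receptor, had 87.3, 125 and 83.4 CPM with calycosin plus LPS, 66.4, 73.4 and 93.8 CPM with LPS and 125, 122 and 63.0 CPM with vehicle. Vehicle replicate 3 lay at the bottom and calycosin plus LPS replicate 2 at the top of their groups. With all libraries Psmd4 was not called with LPS (log2 -0.41 ± 0.27 (SE), edgeR adjusted p = 0.22), whereas without those 2 libraries it fell by 0.72 ± 0.14 (edgeR adjusted p = 0.0020). It was called lower in 3 of 22 alternatives. In the libraries with a mitochondrial share over 10%, where vehicle replicate 3 was the only vehicle library, it had 0.28, the opposite sign.

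In the lid, 6 of 8 members rose with LPS under TMM and none fell, against 1 higher (Psmd8) and 2 lower (Psmd6 and Psmd13) with library totals. Psmd8 (chr7:29174188-29180701, − strand), a structural lid subunit, had 382, 554 and 404 CPM with calycosin plus LPS, 534, 524 and 671 CPM with LPS and 206, 206 and 196 CPM with vehicle. Vehicle was lowest without overlap, and calycosin plus LPS replicate 2 reached into the LPS range. The log2 fold change with LPS was 1.51 ± 0.17 (SE, edgeR adjusted p = 4.2e-05). Psmd14, the deubiquitinase that clips ubiquitin from substrates, had 110, 100 and 112 CPM with calycosin plus LPS, 152, 144 and 155 CPM with LPS and 84.3, 87.6 and 90.1 CPM with vehicle. The 3 groups did not overlap. Psmd14 rose by 0.78 ± 0.09 (log2, SE, edgeR adjusted p = 8.1e-05), with -0.03 in the TPM values. Psmd11, Psmd12, Psmd3 and Psmd7 rose by 0.89, 0.64, 0.51 and 0.33, of which Psmd12 (-0.045), Psmd3 (-0.20) and Psmd7 (-0.36) turned with library totals, while Psmd6 (-0.01) and Psmd13 (-0.12) were not called.

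The 3 chaperones that assemble the base went different ways. Psmd5 had 35.6, 28.7 and 34.2 CPM with calycosin plus LPS, 27.6, 27.9 and 25.5 CPM with LPS and 61.6, 42.4 and 42.2 CPM with vehicle. Psmd9 had 17.4, 21.0 and 16.6 CPM with calycosin plus LPS, 19.3, 18.7 and 20.4 CPM with LPS and 34.9, 34.5 and 22.4 CPM with vehicle. The vehicle libraries of both genes lay above all LPS libraries. With LPS Psmd5 fell by 0.85 ± 0.17 (edgeR adjusted p = 0.0017) and Psmd9 by 0.65 ± 0.18 (edgeR adjusted p = 0.012) on the log2 scale (SE), in the same direction under each scaling tried. Psmd10, also known as gankyrin, rose by 0.85 under TMM.

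**Figure D3:**
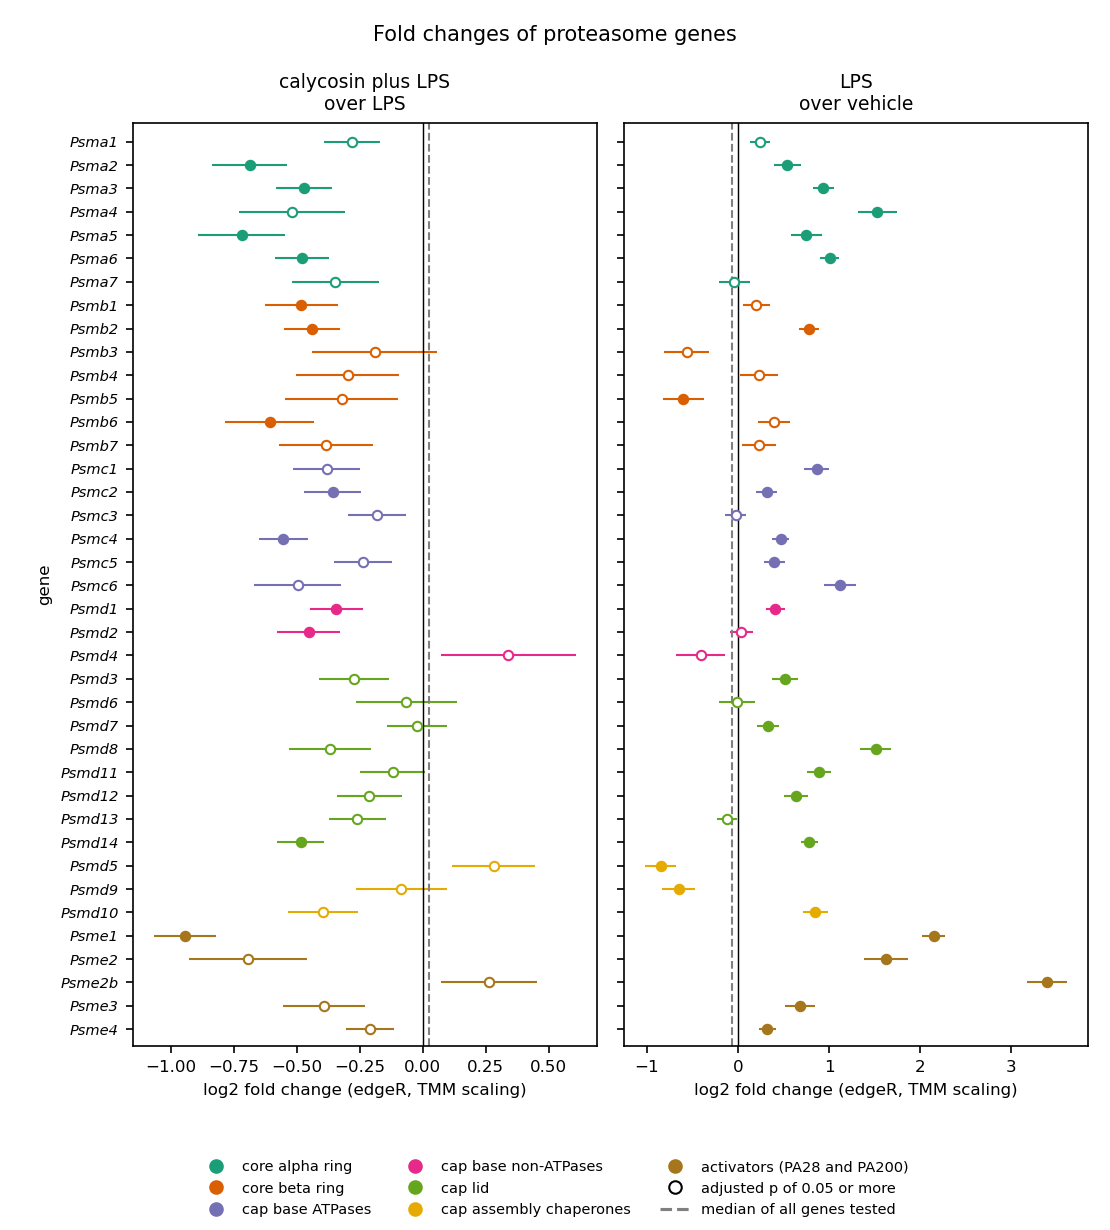
Log2 fold change of each proteasome gene with its SE (TMM scaling), for calycosin plus LPS over LPS (left) and LPS over vehicle (right). Filled points passed an edgeR adjusted p below 0.05, and the dashed line is the median of all genes tested. On the left 36 of 39 genes lie below that line, and on the right 33 of 39 lie above it; library totals shift the right-hand line to -0.77 and the genes with it.

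Calycosin plus LPS was then set against LPS to ask how the pretreatment changed the LPS-treated state. Of the 39 members 13 fell and 0 rose under TMM, against 12.9% of all genes called lower and 16.1% called higher. At an unadjusted p below 0.05 edgeR gave 22 lower and 0 higher, against 2694 and 3214 of the 14458 genes tested. DESeq2 called 22 lower and 0 higher after adjustment, against 2575 and 2494 of all genes. By edgeR under TMM the median log2 fold change was -0.36 over the members and 0.02 over all genes. With library totals the median of all genes was 0.33 and 1 member was called lower, against 710 of all genes. On TPM values no member was called, against 300 of all genes called lower with log2(TPM + 1). Leaving out 1 library gave 22 lower members without vehicle replicate 3, 8 without LPS replicate 3, and 7 without LPS replicate 1, calycosin plus LPS replicate 1 or calycosin plus LPS replicate 3. Of the 14930 to 14967 genes tested, 2576 were called lower without vehicle replicate 3 and 1520 without LPS replicate 3. Without LPS replicate 1 the number was 1307, and without calycosin plus LPS replicate 1 or 3 it was 1224 or 1268. Relative to the median of all genes the members lay at -0.38 with TMM, -0.37 with library totals and -0.30 on log2(TPM + 1). The LPS libraries here are those of the comparison with vehicle, so the values are not independent of it.

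The members called lower comprised 4 of 7 alpha members (Psma2, Psma3, Psma5 and Psma6), 3 of 7 beta members (Psmb1, Psmb2 and Psmb6), 2 of 6 ATPases (Psmc2 and Psmc4), the scaffolds Psmd1 and Psmd2, the lid member Psmd14 and the activator Psme1. No base chaperone was called, but Psmd10, at -0.40 ± 0.14 (SE, edgeR adjusted p = 0.058), was called lower in 7 of 22 alternatives, DESeq2 among them. Of the 13 calls, Psmc2 was made in 7 of 22 alternatives and Psmb1 and Psmd1 in 9 each, and the others in 13 to 20. Psme1 fell most, with a log2 fold change of -0.94 ± 0.12 (SE, edgeR adjusted p = 0.00065). In the levels given above, its calycosin plus LPS libraries lay below all LPS libraries and above all vehicle libraries. Psme2 had a similar value of -0.70 ± 0.24 but did not pass (SE, edgeR adjusted p = 0.051), whereas it did at -0.79 ± 0.11 without the 2 libraries that stood apart (edgeR adjusted p = 0.0013), 1 of 8 alternatives of the 22 that called it. Psme2b had 0.26 (edgeR adjusted p = 0.33), and whether it differed from Psme2 in this comparison was not tested.

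Psma5 had 87.1, 98.5 and 88.1 CPM with calycosin plus LPS, 153, 135 and 163 CPM with LPS and 101, 102 and 64.9 CPM with vehicle. Psma2 had 68.3, 76.9 and 66.7 CPM with calycosin plus LPS, 106, 110 and 126 CPM with LPS and 87.1, 86.4 and 61.8 CPM with vehicle. The LPS libraries of both genes stood above the rest, and the calycosin plus LPS libraries overlapped vehicle. With calycosin plus LPS over LPS, Psma5 fell by 0.72 ± 0.17 (edgeR adjusted p = 0.012) and Psma2 by 0.69 ± 0.15 (edgeR adjusted p = 0.0076) on the log2 scale (SE). Psmb6 fell by 0.61 ± 0.18 (edgeR adjusted p = 0.029), Psmc4 by 0.55 ± 0.10 (edgeR adjusted p = 0.0027) and Psmd14 by 0.49 ± 0.09 (edgeR adjusted p = 0.0047). The catalytic subunits Psmb5 (-0.32) and Psmb7 (-0.39), the PA28 gamma gene Psme3 (-0.39) and Psmd8 (-0.37) did not pass the test.

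Without the 2 libraries that stood apart, 25 members fell with calycosin plus LPS over LPS and 0 rose, against 18.0% of all genes called lower and 20.6% called higher. All 13 of the members above were among them. In this setting the vehicle and calycosin plus LPS groups hold 2 libraries each, and the mitochondrial share separates the groups. In the beta ring this setting called 6 of 7 members lower, among them Psmb5 at -0.47 (edgeR adjusted p = 0.0069) and Psmb7 at -0.43 (edgeR adjusted p = 0.012). For LPS over vehicle the same setting gave 23 higher and 7 lower members, against 31.0% and 35.3% of all genes, and it added Psma7, Psmb3, Psmd4 and Psmd13 to those that fell.

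Calycosin plus LPS over vehicle shows where the double treatment ended. Under TMM 14 members were higher and 6 lower, against 25.4% and 23.6% of all genes. With library totals 4 were higher and 10 lower, against 2034 and 5143 of the 14458 genes tested. The values that follow are those under TMM. The median log2 fold change was 0.06 over the members and -0.005 over all genes. The largest values were those of Psme2b (3.65 ± 0.22), Psme1 (1.20 ± 0.12), Psmd8 (1.14 ± 0.16), Psma4 (1.01 ± 0.21) and Psme2 (0.93 ± 0.24) (log2, SE), with edgeR adjusted p from 9.4e-07 for Psme2b to 0.0094 for Psme2. The lower members were Psmb5 (-0.93, edgeR adjusted p = 0.0077), Psmb3 (-0.76, edgeR adjusted p = 0.030), Psmd9 (-0.74, edgeR adjusted p = 0.0076), Psmd5 (-0.57, edgeR adjusted p = 0.017), Psmd2 (-0.42, edgeR adjusted p = 0.019) and Psmd13 (-0.39, edgeR adjusted p = 0.018). Psmb5 was called in every setting tried. Without the 2 libraries that stood apart, 14 were higher and 15 lower, against 30.4% and 29.7% of all genes, and 6 of the 7 beta members were among the lower ones. Leaving out vehicle replicate 3 alone gave 15 higher and 13 lower, vehicle replicate 1 gave 8 and 2, vehicle replicate 2 gave 8 and 3, and calycosin plus LPS replicate 1 gave 10 and 3. Over the 14649 to 14938 genes tested, the numbers in the same order were 4376 and 4337, 2867 and 2683, 2851 and 2689, and 3027 and 2523.

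TPM, which divides by transcript length, allows levels to be compared between genes. In TPM, the mean level of the beta members ran from 85.7 (Psmb5) to 207 (Psmb6) with calycosin plus LPS, from 81.8 (Psmb5) to 244 (Psmb6) with LPS and from 164 (Psmb2) to 342 (Psmb6) with vehicle. Psmd8 was the most abundant lid transcript in each group, at 557 ± 248 TPM with calycosin plus LPS, 556 ± 102 TPM with LPS and 367 ± 116 TPM with vehicle (SD, n = 3 each). The chaperones Psmd5 and Psmd9 were the scarcest of the core and cap genes, with mean levels of 8.68 to 30.1 TPM over the 3 groups. Among the activators Psme2 was highest in the LPS group (214 ± 29.3 TPM), and its distance to Psme1 (205 ± 32.9 TPM) was smaller than the spread of either (SD, n = 3 each).

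**Figure D4:**
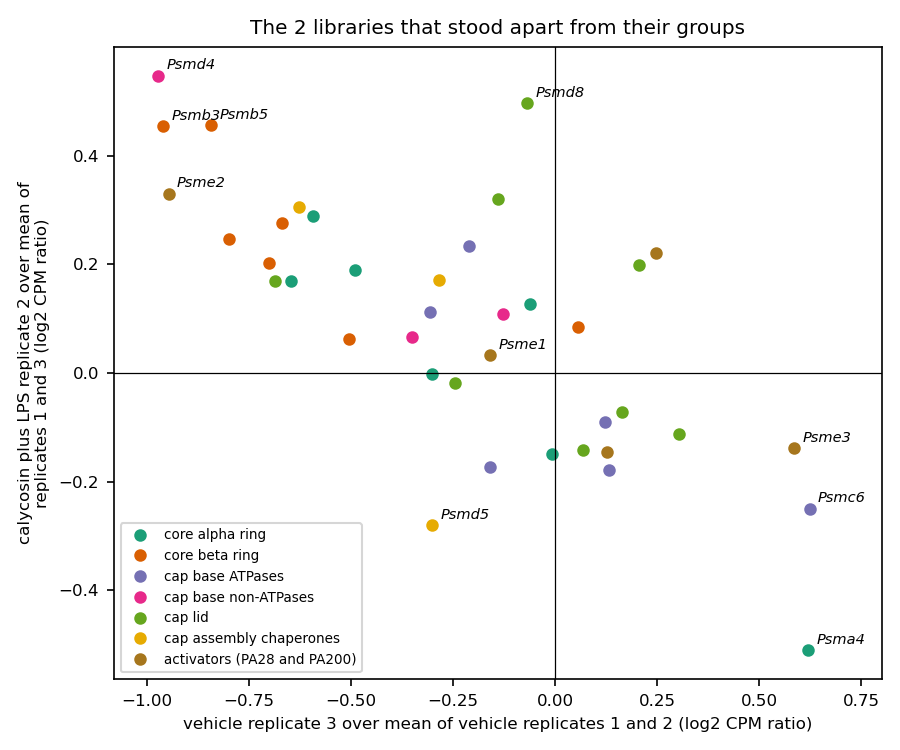
For each proteasome gene, the log2 CPM ratio of vehicle replicate 3 to the mean of the other vehicle libraries (horizontal) against that of calycosin plus LPS replicate 2 to the mean of the other libraries of its group (vertical). Colours mark roles; Psmd4, Psmb3, Psme2 and Psmb5 lie at the upper left and Psma4 and Psmc6 at the lower right.

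Vehicle replicate 3 was below the mean of the other vehicle libraries for 27 of 39 members, from -0.97 (Psmd4) to 0.62 (Psma4 and Psmc6) on the log2 scale. Calycosin plus LPS replicate 2 was above the mean of the other libraries of its group for 25. The deviations had opposite signs in 31 of 39 members, with Pearson r = -0.72 and Spearman rho = -0.65 across the members, against r = -0.49 across all genes. These are descriptions across genes, which share the libraries and their scaling and are not independent. Of the beta members, 6 of 7 were lower in vehicle replicate 3, from -0.96 (Psmb3) to -0.51 (Psmb1). The mitochondrial share moved with this pattern, at 21.9% in that library and 7.45% in calycosin plus LPS replicate 2, and its part was not tested.

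Genes that assemble or regulate the proteasome were counted against the same background of 27.3% of all genes higher and 28.9% lower with LPS. For calycosin plus LPS over LPS the background was 16.1% higher and 12.9% lower. Of 6 core assembly chaperones and inhibitors, 1 rose and 1 fell with LPS, with a median log2 fold change of -0.26. Pomp, which matures the beta rings, rose by 1.10 ± 0.21 with LPS (edgeR adjusted p = 0.0016) and fell by 0.79 ± 0.21 with calycosin plus LPS over LPS (log2, SE, edgeR adjusted p = 0.019), and Psmg3 fell by 1.49 with LPS. Of 7 other cap and cap-bound proteins found in the table, 2 rose with LPS, Akirin2 (1.15), which carries proteasomes into the nucleus, and Zfand5 (0.29), and Sem1, a small lid subunit, was the 1 that fell with calycosin plus LPS over LPS (-0.60, edgeR adjusted p = 0.0059). Of 7 regulators of proteasome transcription, 3 rose and 2 fell with LPS. They included Nfya (0.96), a CCAAT-binding subunit, and Nfe2l1 (0.55), which encodes NRF1, against Foxo4 (-1.20) and Ddi2 (-0.88), the protease that activates NRF1. Ddi2 was the 1 regulator that rose with calycosin plus LPS over LPS (0.47, edgeR adjusted p = 0.0084).

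Of 15 ubiquitin genes, activating enzymes and shuttle factors, 6 rose and 3 fell with LPS, and 2 rose and 2 fell with calycosin plus LPS over LPS. Over all genes, 27.3% were called higher and 28.9% lower with LPS, and 16.1% and 12.9% with calycosin plus LPS over LPS. Uba6, a ubiquitin-activating enzyme, had the largest rise with LPS (1.45 ± 0.26, edgeR adjusted p = 0.0012), followed by the shuttle Ubqln1 (0.83). The shuttle Ubqln2 fell with LPS (-1.18) and rose with calycosin plus LPS over LPS (0.82, edgeR adjusted p = 0.0049). The enzyme Uba1 rose with LPS (0.65) and fell with calycosin plus LPS over LPS (-0.50, edgeR adjusted p = 0.012). With calycosin plus LPS over vehicle, 1 rose and 2 fell of the core assembly list, 2 and 1 of the cap list, 1 and 2 of the regulators and 3 and 4 of the ubiquitin list. Over all genes, 25.4% were called higher and 23.6% lower in that comparison. Ddi2 is in both the regulator and the ubiquitin list, and directions in these lists are those under TMM scaling; other scalings were not run for these lists.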

How the data were processed

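Polyadenylated RNA of RAW 264.7 cells was sequenced in 9 libraries. Trimmomatic 0.36, HISAT2 2.0, StringTie 1.3.3b and build mm10 are named in the submitters' processing notes. The deposited raw counts are whole numbers for 51826 genes, and the deposited TPM values, scaled by the authors for length and depth, cover 51799. How reads were counted, on which annotation and with which strand setting is not given in the sources used here. The 27 symbols that read as dates do not concern members. Per the labels the replicates are biological, with no statement of separate cultures, so p-values measure the spread between these libraries. No pair of libraries was a duplicate.

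Counts were filtered with filterByExpr (14458 genes left), scaled by TMM (factors 0.786 to 1.42) and fitted with edgeR 4.0.16 in R 4.3.3, with 1 term per group over all 9 libraries. The quasi-likelihood F test was two-sided, p-values were Benjamini-Hochberg adjusted across all genes tested, and the SE was derived from the F statistic. For 1 gene, the smallest exact permutation p of 3 against 3 libraries is 0.1. The fit was also run on simulated counts in which a small part of the genes changed, in both directions and without outlying libraries. That run does not bear on the choice of scaling. DESeq2 1.42.0 and limma 3.58.1 (log2(TPM + 1) or log2(TPM + 0.1), TPM above 0.5) were alternatives, beside other scalings, filters, offsets and left-out libraries. Positions and overlaps come from GENCODE M21 (GRCm38), where all 39 members were found.

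Members and lists were chosen with earlier results of these data known. Values in every library are given for the activators, the catalytic beta subunits, Psmd4, Psmd14 and the called members with the up to 5 largest rises and falls of each comparison. Of other lists the up to 2 called members with the largest change are named, and Ubqln1 and Nfe2l1 were added after their values were seen. Protein sequences were not compared. Libraries were not paired by replicate number in the main fit. Correlations of same-numbered deviations ran from -0.17 to 0.36. With 3 libraries per group they cannot settle whether same-numbered libraries belong together.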

Additional observations from a re-analysis of the deposited data

How the results depend on the processing

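Members called higher and lower numbered 24 and 3 for LPS over vehicle, 0 and 13 for calycosin plus LPS over LPS, and 14 and 6 for calycosin plus LPS over vehicle. Library totals gave 6 and 11, 0 and 1, and 4 and 10, and limma on log2(TPM + 1) and on log2(TPM + 0.1) both gave 3 and 6, 0 and 0, and 1 and 4. These settings also moved the median of all genes, to -0.77 (totals), -0.65 (TPM + 1) and -0.83 (TPM + 0.1) for LPS over vehicle, by their own construction. Over all genes, in the same order, library totals gave 1879 and 7744, 3418 and 710, and 2034 and 5143. The TPM + 1 setting gave 1431 and 6845, 1347 and 300, and 1423 and 3617. The TPM + 0.1 setting gave 1434 and 6772, 1647 and 307, and 1411 and 3349. For calycosin plus LPS over LPS, members called lower were 22 with DESeq2 and 7 without a filter on low counts. They were 22 with a length offset, 23 with a GC offset and 25 without both unusual libraries. With the mitochondrial share as a covariate they were 27 (1 higher, Psmd4, at 0.30). In libraries with a mitochondrial share over 10%, the median log2 fold change was -0.37 over the members and 0.02 over all genes, with Psmd5 at 0.39. Over all genes, those called lower were 2575 with DESeq2, 1389 without a filter, 2457 with a length offset and 2578 with a GC offset. They were 2670 without both unusual libraries and 3282 with the covariate. For LPS over vehicle, members called lower were 7 without both unusual libraries. In the libraries over 10%, vehicle replicate 3 was the only vehicle library, and the median log2 fold change of the members was 0.53. For calycosin plus LPS over vehicle, 8 members were higher and 11 lower with the GC offset, against 2952 and 4101 of all genes. Without both unusual libraries 15 were lower, and in the libraries over 10% the members' median was 0.26. The cause was not tested.

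Leaving out each library in turn gave 19 to 24 higher and 2 to 5 lower for LPS over vehicle, 0 higher and 7 to 22 lower for calycosin plus LPS over LPS, and 8 to 15 higher and 2 to 13 lower for calycosin plus LPS over vehicle. Over the 14649 to 14972 genes tested, LPS over vehicle gave 3253 to 4451 higher and 3605 to 5090 lower. Calycosin plus LPS over LPS gave 1697 to 3164 higher and 1224 to 2576 lower. Calycosin plus LPS over vehicle gave 2851 to 4376 higher and 2523 to 4337 lower. The highest counts of lower members all came without vehicle replicate 3. Psma4, Psme1 and Psme2b stayed called higher and Psmd5 lower with LPS over vehicle in all 22 alternatives, as did Psme2b (higher) and Psmb5 (lower) with calycosin plus LPS over vehicle. No call of calycosin plus LPS over LPS held in all of them. A replicate block gave 23 and 3, 0 and 12, and 14 and 6, and whether same-numbered libraries belong together is not stated. Over the 14458 genes tested the block gave 3910 and 3930, 2113 and 1701, and 3604 and 3163.

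Members called in the main or the alternative setting changed direction as follows (log2). LPS over vehicle, library totals: Psma2 -0.19, Psmc2 -0.41, Psmc4 -0.23, Psmc5 -0.31, Psmd1 -0.30, Psmd2 -0.69, Psmd3 -0.20, Psmd7 -0.36, Psmd12 -0.045 and Psme4 -0.38. Of these, Psmd2 and Psme4 were called lower with library totals (edgeR adjusted p = 0.015 and 0.022). TPM + 1: Psma2 -0.22, Psma3 -0.0028, Psmc2 -0.45, Psmc4 -0.31, Psmc5 -0.38, Psmd1 -0.37, Psmd3 -0.28, Psmd7 -0.45, Psmd12 -0.13, Psmd14 -0.030, Psme3 -0.075 and Psme4 -0.44. TPM + 0.1 gave the same values to 2 decimals except Psma3 -0.0024 and Psme4 -0.45. GC offset: Psma2 -0.14, Psma7 0.38, Psmc2 -0.29, Psmc3 0.28 and Psme4 -0.12. Mitochondrial covariate: Psma7 0.23. Calycosin plus LPS over vehicle, library totals: Psmb2 -0.054 and Psmd14 -0.11. Both TPM settings: Psma3 -0.19, Psmb2 -0.050, Psmd12 -0.0097 and Psmd14 -0.19. GC offset: Psma3 -0.12, Psmd10 -0.093, Psmd14 -0.20 and Psme4 -0.35. Mitochondrial covariate: Psmb4 0.26 and Psmd4 0.37. No called member changed direction for calycosin plus LPS over LPS. Signs also turned under some alternative, without a call in either setting, for 12 members in LPS over vehicle (among them Psmb3, Psmb6, Psmb7 and Psmd4), 13 in calycosin plus LPS over LPS and 16 in calycosin plus LPS over vehicle. Members had 3543 to 115675 counts each over the 9 libraries.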

Other observations

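Cytosolic ribosomal protein genes encode the subunits of another large complex. Of 18 listed genes 1 rose (Rps6, log2 0.58) and 9 fell with LPS under TMM, against 27.3% of all genes higher and 28.9% lower. Other scalings were not run for this list. The median log2 fold change was -0.55, against 0.41 for the proteasome members and -0.07 for all genes. Ribosomal protein genes together held 4.03%, 4.07% and 1.99% of the counts in the vehicle libraries and 1.56% to 1.90% in the LPS libraries. Vehicle replicate 3 thus lay near the LPS libraries and apart from its group. The largest falls were those of Rps2 (-1.38 ± 0.35 (SE), edgeR adjusted p = 0.0081) and Rpl13 (-1.25 ± 0.39 (SE), edgeR adjusted p = 0.021). With calycosin plus LPS over LPS 1 fell (Rps18, -0.80) by edgeR, with a median of -0.07, against 12.9% of all genes lower. With calycosin plus LPS over vehicle 9 fell, against 23.6% of all genes. Pseudogenes of ribosomal proteins are numerous, and how reads with several matches were counted is not given in the sources used here.

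Some members share exonic bases with a neighbour on the opposite strand, and without a stated strand setting their reads cannot be told apart. Slc39a13 had 26.4% as many counts as Psmc3, and Sirt3 had 9.01% as many as Psmd13. With LPS over vehicle Nek6, which overlaps Psmb7, had a log2 fold change of -1.52 (edgeR adjusted p = 2.6e-05) and Sirt3 of -1.68 (edgeR adjusted p = 0.0050), both lower in LPS cells, beside 0.23 for Psmb7 and -0.12 for Psmd13.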
